A study of Rattus norvegicus with 12 samples.

Results

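The potassium channel genes of PAC1 cells, a smooth muscle line derived from rat pulmonary artery, were examined after siRNA depletion of 3 RNA-binding proteins. The set holds every row of the count table whose symbol starts with Kcn, which gave 94 of 33294 rows. It contains the pore-forming subunits of all potassium channel classes, most of their auxiliary subunits and 1 regulator gene. A gene was called expressed when its mean over the 12 libraries reached 1 CPM (the count divided by the total of its column, times 1000000), and 20 of the 94 met this rule. Another 30 had enough counts to be tested, and 44 had too few.

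The libraries form 4 groups of 3, which were handled in parallel and differ, per the labels, in the siRNA. PAC1 cells in serum-containing medium received 90 pmol of siRNA, either a negative control (C2 in the labels) or a reagent directed at RBPMS, RBFOX2 or QKI (gene symbol Qk), with the transfection repeated after 24 h and the cells collected 48 h later, per the labels. The study describes longer intervals, and which applies was not resolved. Per the study, the RBPMS, RBFOX2 and QK knockdowns were made in PAC1 cells cultured towards the differentiated state. It reports that these cells were less differentiated than those of its other sequencing experiment. RBPMS is a regulator of splicing enriched in smooth muscle, and RBFOX2 and QKI are more widely present RNA-binding proteins. The groups are called control, RBPMS-KD, RBFOX2-KD and QKI-KD below. Each target was depleted with a single siRNA in a single cell line. The study's methods state at least 3 biological replicates for each knockdown condition, while the labels do not say whether replicates were separate cultures. The p-values therefore measure the spread between these libraries, whose source the labels do not give.

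The sense strand of each siRNA is shown because the 3 comparisons rest on these reagents, with the control first.
C2: aagguccggcucccccaaaug
RBPMS: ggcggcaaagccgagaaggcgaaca
RBFOX2: gcaaugguucagccuuuua
QK: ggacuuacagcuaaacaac

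Potassium channels let potassium leave the cell, which moves the membrane potential to more negative values and closes voltage-gated calcium channels, so in arterial muscle their opening favours relaxation. Voltage-gated (Kv) channels open on depolarisation, calcium-activated channels open when intracellular calcium rises, inward rectifiers (Kir) and two-pore-domain (K2P) channels conduct near the resting potential, and auxiliary subunits change the gating or surface level of the pores. Contractile arterial muscle is known for large-conductance calcium-activated, Kv and ATP-sensitive channels, while the intermediate-conductance calcium-activated channel is known from proliferating smooth muscle and from lymphocytes.

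Library totals lay between 111 and 152 M counts, so 1 CPM stood for 111 counts or more in every library. The study's methods describe subsampling of the reads to one common depth, while these totals differ between libraries, which was not resolved. Each siRNA target fell in its own knockdown, with a log2 fold change of −2.50 ± 0.065 for Rbpms, −2.05 ± 0.044 for Rbfox2 and −3.13 ± 0.040 for Qk. The targets also moved in the other knockdowns, with Rbpms at −0.81 ± 0.058 in RBFOX2-KD and −0.49 ± 0.058 in QKI-KD, Qk at 0.18 ± 0.036 in RBPMS-KD and −0.42 ± 0.036 in RBFOX2-KD, and Rbfox2 at −0.12 ± 0.041 in RBPMS-KD and −0.15 ± 0.041 in QKI-KD, all past the test. All 8 smooth muscle markers examined reached 1 CPM, and their summed level was 2109 to 2175 CPM in control, 1069 to 1176 CPM in RBPMS-KD, 827 to 924 CPM in RBFOX2-KD and 1441 to 1526 CPM in QKI-KD. Most of this sum came from Acta2 and Tagln, and single markers went both ways, with 6, 5 and 5 of the 8 lower and 2 higher in each of RBPMS-KD, RBFOX2-KD and QKI-KD. Myh11 rose in all 3 (0.34 ± 0.080, 1.05 ± 0.078 and 0.19 ± 0.080), Myocd rose in QKI-KD (0.78 ± 0.058), and Tagln did not pass the test there (0.03 ± 0.054). Of 4 endothelial markers 2 reached 1 CPM (Cdh5 and Tek, with a summed list of 4.31 to 9.09 CPM over all libraries), and of the neuronal, leukocyte and cardiac markers 1 each did (Tubb3, Cd68 and Tnnt2). The marker sums differ between groups together with the channel genes below, and their part in those results was not tested. In such bulk samples a smaller share of cells that carry an RNA and less of it per cell cannot be told apart.

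The 20 expressed genes came from every channel class. Among 40 voltage-gated rows 9 were expressed (Kcnq5, Kcnh2, Kcng1, Kcnd1, Kcnd3, Kcng3, Kcnf1, Kcnh6 and Kcnh7), and among 16 auxiliary rows 4 were (Kcnab2, Kcne4, Kcnip3 and Kcne2). The two-pore-domain class had 3 of 14 (Kcnk2, Kcnk6 and Kcnk5), the inward rectifiers 2 of 15 (Kcnj14 and Kcnj2) and the calcium- or sodium-activated class 2 of 8 (Kcnn4 and Kcnn1). The remaining row, the regulator Kcnrg, was tested but not expressed. The expressed share was 22.5% of voltage-gated, 25% of auxiliary, 21.4% of two-pore-domain, 13.3% of inward rectifier and 25% of calcium- or sodium-activated rows, against 38.7% of all rows of the table. With 2 to 9 expressed members a class, these shares were not compared by a test.

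**Figure D1:**
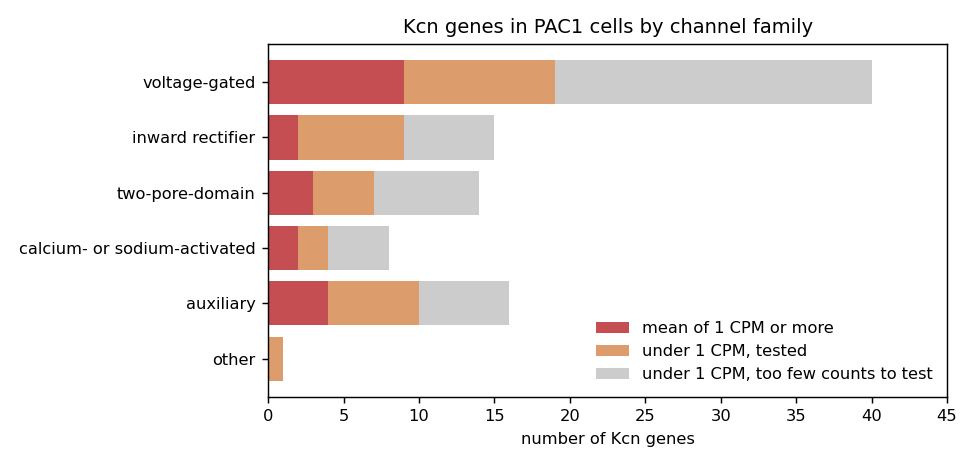
Number of Kcn rows in each channel class (x axis), split into genes with a mean of 1 CPM or more, genes under 1 CPM with enough counts to be tested, and genes with too few counts. The voltage-gated class is the largest with 40 rows, of which 9 were expressed, and in every class the expressed genes are the minority.

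The genes nearest the limit were Kcnh6 (1.32 CPM), Kcnh7 (1.28 CPM) and Kcne2 (1.16 CPM) inside it, and Kcnab3 (0.987 CPM), Kcnj13 (0.923 CPM) and Kcnmb4 (0.869 CPM) outside. Membership at the limit depends on the mean over all groups, since Kcnh6 and Kcne2 were under 1 CPM in the control mean and above it in QKI-KD. Both are in the expressed set through their QKI-KD level. Their calls that involve QKI-KD are therefore a description only, also within the counts of expressed genes below. Kcnab3 and Kcnmb4 were above 1 CPM in the control mean (1.77 and 1.68 CPM) and under it in every knockdown. Their lower knockdown levels thus put them outside the expressed set, and the counts of expressed genes that fell leave them out. Of the 94 rows, 3 had no count in any library (Kcna1, Kcnj1 and Kcnj5), and 18 had no more than 3 counts in any. In all, 50 rows had a mean under 0.1 CPM.

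The next 7 genes, of channels known from contractile arterial muscle, were picked after their values were seen, for their few counts, and stand for themselves and not for that class of channels. Kcnq5 and Kcnj2, also known from arterial muscle, were expressed. The pore of the large-conductance calcium-activated channel, Kcnma1, had 1 to 10 counts a library, and its smooth muscle beta subunit Kcnmb1 had 0 to 14. The Kv genes Kcna2 and Kcna5 had 0 to 2 counts each. The ATP-sensitive pores Kcnj8 and Kcnj11 had 0 to 4 and 0 to 12 counts, and the acid-sensitive two-pore gene Kcnk3 had 0 to 16. No library of any group reached 20 counts for any of these 7 genes, against the 111 or more that 1 CPM requires.

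**Figure D2:**
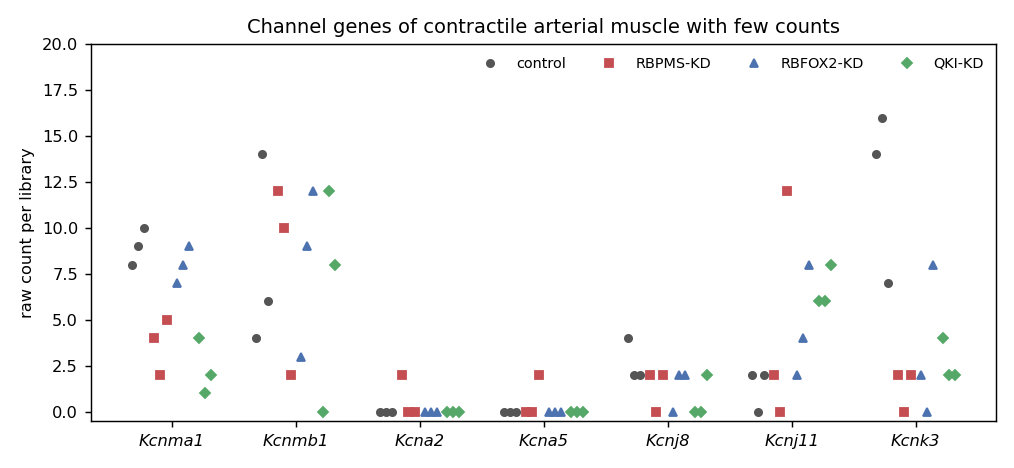
Raw count of 7 arterial channel genes in each of the 12 libraries (y axis, linear, without correction for library total), with 1 point for each library and the group shown by colour and symbol. The highest point is 16 counts, for Kcnk3 in a control library, and Kcna2 and Kcna5 are at 0 in most libraries.

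Each knockdown was compared with control for 18438 genes, by the quasi-likelihood test of edgeR with Benjamini-Hochberg adjustment. Below, a gene is said to have risen or fallen at an adjusted p under 0.05, and to have passed the 2-fold threshold when its absolute log2 fold change was also above 1. Levels are CPM adjusted by the TMM library factors and not corrected for transcript length, so differences in level are read between groups and not between genes. Where a highest gene or a class sum is given, it is by these counts alone. Log2 fold changes are given with their SE, and group levels as mean ± SD with n = 3. The 3 comparisons share the control libraries.

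All 20 expressed Kcn genes passed the test in at least 1 knockdown, as did 96.6% of all genes at 1 CPM or more, and 11 passed in all 3, against 46.5%. In RBPMS-KD 17 of the 20 passed the test (6 higher, 11 lower), where 73.2% of all genes at 1 CPM or more did. In RBFOX2-KD 12 passed (6 higher, 6 lower) with a background of 72.7%, and in QKI-KD 18 passed (7 higher, 11 lower) with a background of 78.5%. The median absolute log2 fold change of the 20 genes was 0.74 in RBPMS-KD, 0.31 in RBFOX2-KD and 0.64 in QKI-KD, against 0.28, 0.27 and 0.35 over all genes at 1 CPM or more. The signed medians were −0.43, −0.04 and −0.30, against 0.01, −0.02 and −0.03.

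Of the 20 expressed genes, 10 passed the 2-fold threshold in at least 1 knockdown, against 18.8% of all genes at 1 CPM or more. In RBPMS-KD 2 rose past it (Kcnq5 and Kcng1) and 4 fell past it (Kcnk2, Kcne4, Kcnk6 and Kcnip3), where 3.21% of all genes at 1 CPM or more did so upwards and 2.88% downwards. In RBFOX2-KD 2 rose (Kcng1 and Kcnq5) and 2 fell (Kcnk6 and Kcne4), with backgrounds of 3.57% and 3.81%. In QKI-KD 1 rose (Kcnh6) and 5 fell (Kcnj2, Kcnk2, Kcne4, Kcnf1 and Kcnh2), with backgrounds of 4.33% and 8.59%. Kcnh6, also among the 10, had 0.848 CPM in control and 2.35 CPM in QKI-KD. It is in the expressed set through the group where it rose, so its call is a description only, also within the 10. By direction alone, 4 genes rose in all 3 knockdowns (Kcnq5, Kcnd1, Kcnk5 and Kcnj14), 6 fell in all 3 (Kcnh2, Kcne4, Kcnip3, Kcnk2, Kcnk6 and Kcnj2), and 4 rose in 1 knockdown and fell in another (Kcnn4, Kcnn1, Kcng1 and Kcnd3). Over all genes at 1 CPM or more these shares were 15.3%, 16.6% and 25.5%, and the shared control libraries enter all of them.

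**Figure D3:**
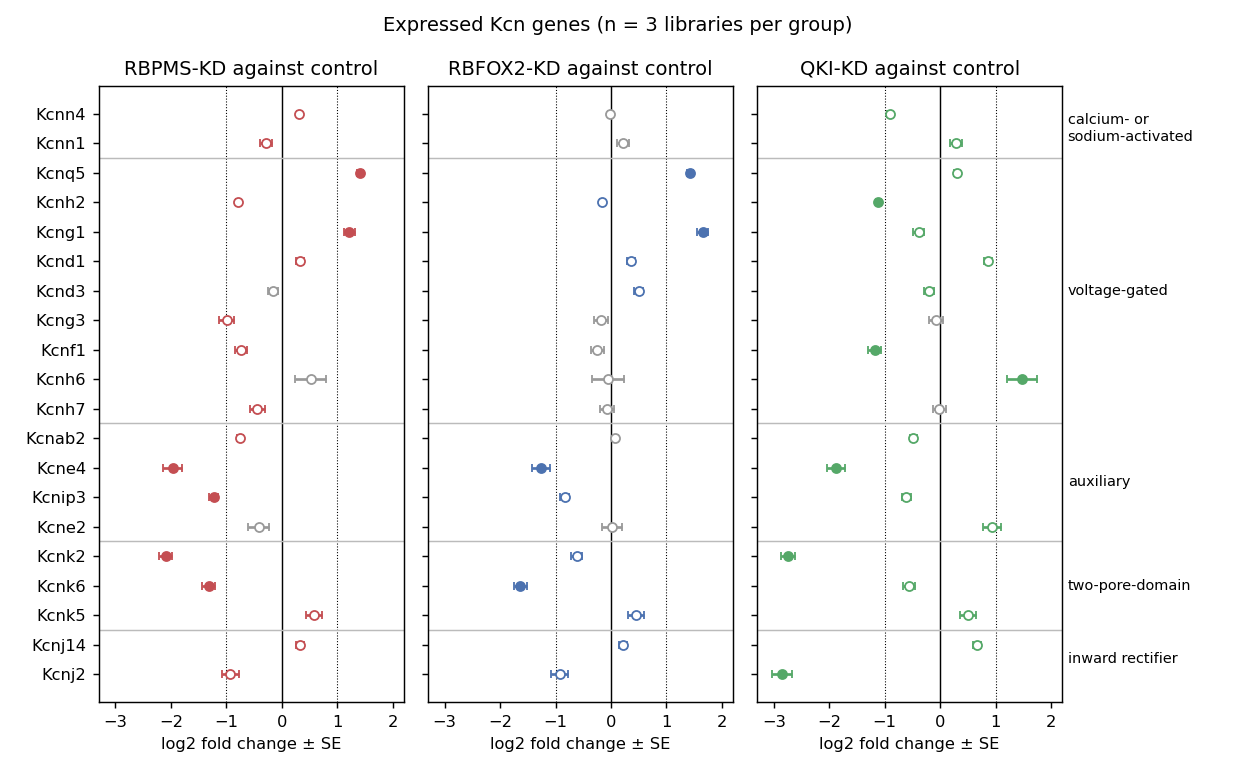
Log2 fold change against control with its SE (x axis) for the 20 expressed Kcn genes, grouped by channel class, in RBPMS-KD, RBFOX2-KD and QKI-KD. Filled points passed the adjusted p and the 2-fold threshold (dotted lines), open coloured points passed the adjusted p alone and grey points did not pass, and Kcne4 is the gene with a filled point in all 3 panels.

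The calcium-activated class was represented by Kcnn4, the intermediate-conductance channel gated by calmodulin-bound calcium, and by Kcnn1, a small-conductance relative. Kcnn4 measured 307, 326 and 307 CPM in the control libraries, 381, 408 and 377 CPM in RBPMS-KD, 298, 314 and 317 CPM in RBFOX2-KD and 161, 172 and 167 CPM in QKI-KD. All RBPMS-KD libraries were above and all QKI-KD libraries below every control library, while the RBFOX2-KD libraries overlapped with control. The log2 fold change was 0.31 ± 0.040 in RBPMS-KD (adjusted p = 3.47e-06) and −0.91 ± 0.041 in QKI-KD (adjusted p = 2.16e-12). In RBFOX2-KD it was −0.01 ± 0.040 (adjusted p = 0.778), and its sign turned positive when libraries were scaled by their totals (0.040) or when the normalised table was used (0.027). The mean of Kcnn1 was 2.47 ± 0.255 CPM in control, 2.03 ± 0.127 CPM in RBPMS-KD, 2.86 ± 0.0927 CPM in RBFOX2-KD and 3.02 ± 0.336 CPM in QKI-KD. It fell in RBPMS-KD (log2 fold change −0.28 ± 0.11, adjusted p = 0.034) and rose in QKI-KD (0.29 ± 0.10, adjusted p = 0.0218), and the value in RBFOX2-KD was 0.21 ± 0.10 (adjusted p = 0.0868). The fall was lost without RBPMS-KD 1, RBPMS-KD 2, control 1 or control 2 (adjusted p up to 0.143), in the normalised table (0.135) and with the 6 libraries of the comparison alone (0.0638), and the rise without control 3 (0.108) or QKI-KD 2 (0.121). The RBFOX2-KD value passed with library totals (adjusted p = 0.0356) and without control 1 (0.0477).

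Kcnq5, a pore subunit of the slow, non-inactivating M-type channels, measured 21.1, 20.6 and 21.1 CPM in control. It reached 58.1, 50.6 and 58.99 CPM in RBPMS-KD and 55.8, 56.5 and 56.6 CPM in RBFOX2-KD, and 25.5, 26.3 and 25.6 CPM in QKI-KD. Every knockdown library was above every control library, and the RBPMS-KD and RBFOX2-KD libraries shared a range well above QKI-KD. Relative to control, the log2 fold change was 1.42 ± 0.050 in RBPMS-KD (adjusted p = 3.01e-13), 1.43 ± 0.049 in RBFOX2-KD (adjusted p = 1.51e-13) and 0.30 ± 0.050 in QKI-KD (adjusted p = 3.92e-05).

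The promoter window of Kcnq5, from 250 bases before to 50 after the annotated start, is printed from RefSeq (GRCr8, chr9:31891232-31891531, minus strand, 5′ to 3′), as that of the expressed gene that rose past the 2-fold threshold in both RBPMS-KD and RBFOX2-KD and has a window in the table. Capitals mark matches on either strand to the CCAAT box with its letters as in the name, to the TATA box searched as TATAAA, to the GC box that Sp factors are known to bind, searched as GGGCGG, or to the CArG box of serum response factor, and this window holds 1 CCAAT and 2 GGGCGG, which do not overlap.
Kcnq5: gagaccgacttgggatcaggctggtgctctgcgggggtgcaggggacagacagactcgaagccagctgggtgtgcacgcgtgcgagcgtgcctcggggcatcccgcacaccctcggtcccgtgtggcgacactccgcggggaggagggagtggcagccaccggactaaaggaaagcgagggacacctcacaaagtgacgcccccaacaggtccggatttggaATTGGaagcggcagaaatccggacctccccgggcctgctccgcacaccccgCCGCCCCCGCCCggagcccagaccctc

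Kcnh2, the ERG channel pore that carries the rapid delayed rectifier of heart muscle, measured 41.2, 44.2 and 43.6 CPM in control, 24.7, 24.6 and 25.4 CPM in RBPMS-KD, 37.8, 38.7 and 38.8 CPM in RBFOX2-KD and 19.4, 20.8 and 19.5 CPM in QKI-KD. No knockdown library reached the lowest control library, and QKI-KD was the lowest group. Its log2 fold change was −0.79 ± 0.041 in RBPMS-KD (adjusted p = 4.64e-11), −0.16 ± 0.040 in RBFOX2-KD (adjusted p = 0.00223) and −1.11 ± 0.042 in QKI-KD (adjusted p = 1.98e-13). The other ERG pores are Kcnh6 and Kcnh7. Kcnh6 measured 1.23, 0.973 and 0.338 CPM in control, 1.14, 1.23 and 1.27 CPM in RBPMS-KD, 0.795, 0.669 and 0.970 CPM in RBFOX2-KD and 2.52, 2.17 and 2.37 CPM in QKI-KD. The QKI-KD libraries stood above all others, and control 3 was far below the other control libraries. The log2 fold change in QKI-KD was 1.48 ± 0.27 (adjusted p = 0.000118), and it was 1.10 without control 3 and 1.83 without control 1. In RBPMS-KD it was 0.52 ± 0.28 (adjusted p = 0.125), and in RBFOX2-KD −0.06 ± 0.29 (adjusted p = 0.877). Without control 3 the RBFOX2-KD value became −0.44 (adjusted p = 0.0379), and without control 1 it was 0.29 and the RBPMS-KD value 0.87 (adjusted p = 0.0176), which also passed with no filter (0.0183) and in the normalised table (0.0442). Kcnh7 fell in RBPMS-KD from 1.39 ± 0.0878 to 1.02 ± 0.122 CPM (log2 fold change −0.44 ± 0.13, adjusted p = 0.00763), with −0.06 ± 0.13 in RBFOX2-KD and −0.01 ± 0.13 in QKI-KD, neither past the test. Kcnh7 overlaps Gca in the GRCr8 annotation, and how reads of overlapping genes were counted is not stated.

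Kcng1, Kcng3 and Kcnf1 encode silent subunits, which form no channel alone and modify other Kv pores. Kcng1 measured 7.31, 7.85 and 6.18 CPM in control, 17.3, 15.8 and 16.7 CPM in RBPMS-KD, 20.3, 22.2 and 24.8 CPM in RBFOX2-KD and 5.28, 4.79 and 6.21 CPM in QKI-KD. The RBPMS-KD and RBFOX2-KD libraries were all above control, and the highest QKI-KD library overlapped with the lowest control library. Its log2 fold change was 1.22 ± 0.096 in RBPMS-KD (adjusted p = 7.28e-09), 1.66 ± 0.095 in RBFOX2-KD (adjusted p = 1.09e-10) and −0.39 ± 0.10 in QKI-KD (adjusted p = 0.00271). The QKI-KD call was lost in the normalised table (−0.22, adjusted p = 0.0634).

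Kcnf1 measured 2.44, 2.16 and 2.44 CPM in control, 1.48, 1.46 and 1.29 CPM in RBPMS-KD, 2.20, 1.75 and 1.998 CPM in RBFOX2-KD and 1.03, 1.05 and 1.02 CPM in QKI-KD. The RBPMS-KD and QKI-KD libraries lay below control without overlap, and those of RBFOX2-KD overlapped with it. It fell in RBPMS-KD (log2 fold change −0.73 ± 0.12, adjusted p = 3.31e-05) and QKI-KD (−1.18 ± 0.12, adjusted p = 1.14e-07), and the value in RBFOX2-KD was −0.24 ± 0.11 (adjusted p = 0.0707), which passed without RBFOX2-KD 1 (−0.33, adjusted p = 0.0315). Kcng3 fell in RBPMS-KD, from 2.04 ± 0.237 CPM to 1.03 ± 0.111 CPM (log2 fold change −0.99 ± 0.13, adjusted p = 5.82e-06). It was 1.80 ± 0.0764 CPM in RBFOX2-KD and 1.95 ± 0.250 CPM in QKI-KD, neither past the test.

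The A-type channels, which inactivate quickly after opening, were represented by Kcnd1 and Kcnd3. Kcnd1 rose in all 3 knockdowns, from 4.17 ± 0.246 CPM in control to 5.23 ± 0.272 CPM in RBPMS-KD, 5.39 ± 0.0586 CPM in RBFOX2-KD and 7.62 ± 0.523 CPM in QKI-KD. Its log2 fold change was 0.32 ± 0.074 (adjusted p = 0.00111), 0.37 ± 0.073 (adjusted p = 0.000302) and 0.87 ± 0.072 (adjusted p = 9.17e-09), and no knockdown library overlapped with control. Kcnd3 rose in RBFOX2-KD, from 4.85 ± 0.238 to 6.87 ± 0.121 CPM (log2 fold change 0.50 ± 0.083, adjusted p = 4.78e-05). It fell slightly in QKI-KD (−0.21 ± 0.085, adjusted p = 0.0426), a call that was lost under 11 of 21 other settings, among them scaling by totals (−0.12, adjusted p = 0.227) and leaving out control 2, control 3, QKI-KD 2, QKI-KD 3 or any RBFOX2-KD library. In RBPMS-KD it was −0.16 ± 0.086 (adjusted p = 0.125), and −0.27 without RBPMS-KD 3 (adjusted p = 0.00976).

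Among the auxiliary subunits, Kcne4 fell past the 2-fold threshold in every knockdown. Kcne4 is a single-pass membrane subunit known to modulate Kv channels, those of the Kcnq genes among them. It measured 12.97, 9.65 and 18.3 CPM in control, 3.82, 3.43 and 3.22 CPM in RBPMS-KD, 6.03, 5.76 and 5.26 CPM in RBFOX2-KD and 3.85, 3.94 and 3.30 CPM in QKI-KD. No knockdown library overlapped with control, but the control libraries themselves were spread widely, with control 3 the highest and control 2 the lowest. Kcne4 had a log2 fold change of −1.97 ± 0.17 in RBPMS-KD (adjusted p = 1.91e-08), −1.26 ± 0.16 in RBFOX2-KD (adjusted p = 2.18e-06) and −1.88 ± 0.16 in QKI-KD (adjusted p = 1.76e-08). Without control 3 the RBFOX2-KD value was −0.99 and no longer past the 2-fold threshold.

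The promoter window of Kcne4 (RefSeq, GRCr8, chr9:87695798-87696097, plus strand, 5′ to 3′) is shown as that of the only Kcn gene, of those expressed by the rule, past the threshold in all 3 knockdowns. Kcnab3 and Kcnmb4, outside the expressed set by their mean, also fell past it in all 3. In the window of Kcne4, capitals as above mark 1 GGGCGG.
Kcne4: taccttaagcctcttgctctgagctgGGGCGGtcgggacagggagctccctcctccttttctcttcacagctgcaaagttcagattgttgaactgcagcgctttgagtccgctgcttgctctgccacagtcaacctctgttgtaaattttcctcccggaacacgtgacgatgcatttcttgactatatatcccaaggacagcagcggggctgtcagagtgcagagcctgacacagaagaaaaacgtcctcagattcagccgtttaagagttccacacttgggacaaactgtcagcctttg

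Kcnip3 encodes a calcium-binding protein of the KChIP family that attaches to A-type pores and is also known as a transcriptional repressor. It measured 6.90, 6.77 and 7.45 CPM in control, 2.94, 3.09 and 3.002 CPM in RBPMS-KD, 4.26, 3.56 and 3.996 CPM in RBFOX2-KD and 4.26, 4.79 and 4.81 CPM in QKI-KD. All knockdown libraries were below all control libraries, those of RBPMS-KD the lowest. Kcnip3 had a log2 fold change of −1.22 ± 0.083 in RBPMS-KD (adjusted p = 1.17e-09), −0.84 ± 0.080 in RBFOX2-KD (adjusted p = 8.1e-08) and −0.61 ± 0.080 in QKI-KD (adjusted p = 2.85e-06). Kcnab2, a cytoplasmic Kv beta subunit, measured 15.97, 17.2 and 16.5 CPM in control, 9.61, 10.6 and 9.25 CPM in RBPMS-KD, 17.7, 17.7 and 16.7 CPM in RBFOX2-KD and 12.3, 11.1 and 12.1 CPM in QKI-KD. It fell in RBPMS-KD (log2 fold change −0.75 ± 0.060, adjusted p = 8.73e-09) and QKI-KD (−0.48 ± 0.059, adjusted p = 1.18e-06) without overlap with control, and the RBFOX2-KD libraries overlapped with control (0.07 ± 0.058, adjusted p = 0.322). Kcnab2 overlaps Nphp4 in the GRCr8 annotation. Kcne2, a relative of Kcne4 known as a partner of ERG and Kcnq pores, rose in QKI-KD from 0.981 ± 0.215 CPM to 1.87 ± 0.0208 CPM (log2 fold change 0.93 ± 0.17, adjusted p = 9.95e-05). In RBPMS-KD it was −0.42 ± 0.18 (adjusted p = 0.0604), which passed under 5 other settings, and in RBFOX2-KD 0.02 ± 0.17 (adjusted p = 0.942).

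Kcnk2, the mechanosensitive background channel TREK-1, measured 11.7, 11.5 and 14.1 CPM in control, 2.68, 3.56 and 2.46 CPM in RBPMS-KD, 8.34, 7.64 and 8.27 CPM in RBFOX2-KD and 1.84, 2.10 and 1.65 CPM in QKI-KD. The groups were separated in the order control, RBFOX2-KD, RBPMS-KD, QKI-KD, with no overlap between neighbours. Kcnk2 had a log2 fold change of −2.09 ± 0.12 in RBPMS-KD (adjusted p = 1.14e-10), −0.62 ± 0.11 in RBFOX2-KD (adjusted p = 7.89e-05) and −2.74 ± 0.12 in QKI-KD (adjusted p = 2.34e-12). The locus LOC120096345, which overlaps it in the GRCr8 annotation, had a mean of 49.4 counts a library against 846 for Kcnk2. RefSeq lists 2 promoter windows for Kcnk2, and neither holds any of the 4 motifs.

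Kcnk6, the background channel TWIK-2, measured 6.12, 6.44 and 6.28 CPM in control, 2.20, 2.55 and 2.79 CPM in RBPMS-KD, 2.28, 2.03 and 1.76 CPM in RBFOX2-KD and 4.23, 4.83 and 3.71 CPM in QKI-KD. Every knockdown library was below control, and QKI-KD was the closest to it. The log2 fold change was −1.32 ± 0.11 in RBPMS-KD (adjusted p = 1.78e-08), −1.63 ± 0.11 in RBFOX2-KD (adjusted p = 1.11e-09) and −0.56 ± 0.11 in QKI-KD (adjusted p = 0.000152). The overlapping locus LOC103689966 had a mean of 1028 counts a library against 491 for Kcnk6, with log2 fold changes of −0.31 ± 0.075, 0.08 ± 0.073 and 0.48 ± 0.073 in the same order, and whether reads were shared between them was not tested. Kcnk5, a background channel opened by alkaline pH, rose in all 3 knockdowns, from 1.04 ± 0.218 CPM in control to 1.55 ± 0.116 CPM in RBPMS-KD, 1.42 ± 0.0974 CPM in RBFOX2-KD and 1.46 ± 0.139 CPM in QKI-KD. Its log2 fold change was 0.58 ± 0.15 (adjusted p = 0.00262), 0.45 ± 0.15 (adjusted p = 0.0133) and 0.50 ± 0.15 (adjusted p = 0.00686). The RBFOX2-KD call was lost without control 2 (adjusted p = 0.0574), control 3 (0.0707) or RBFOX2-KD 1 (0.0585).

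Kcnj2, a strong inward rectifier that sets the resting potential of many muscle cells, measured 3.25, 3.78 and 2.70 CPM in control, 2.09, 1.26 and 1.82 CPM in RBPMS-KD, 1.74, 1.74 and 1.66 CPM in RBFOX2-KD and 0.455, 0.400 and 0.484 CPM in QKI-KD. All knockdown libraries were below control, and those of QKI-KD were far below the rest. The log2 fold change was −0.92 ± 0.16 in RBPMS-KD (adjusted p = 7.72e-05), −0.92 ± 0.16 in RBFOX2-KD (adjusted p = 6.63e-05) and −2.86 ± 0.18 in QKI-KD (adjusted p = 3.12e-10). Kcnj14, a relative of Kcnj2 in the same subfamily, moved the other way. It measured 7.05, 6.38 and 6.44 CPM in control, 8.28, 7.56 and 9.06 CPM in RBPMS-KD, 8.003, 7.39 and 7.71 CPM in RBFOX2-KD and 10.4, 10.6 and 10.4 CPM in QKI-KD. All knockdown libraries were above control, and the log2 fold change was 0.32 ± 0.069 in RBPMS-KD (adjusted p = 0.000618), 0.22 ± 0.069 in RBFOX2-KD (adjusted p = 0.0112) and 0.66 ± 0.068 in QKI-KD (adjusted p = 1.4e-07). The RBFOX2-KD call was lost without RBFOX2-KD 1 (0.18, adjusted p = 0.0592).

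The window of Kcnj2 (RefSeq, GRCr8, chr10:96559975-96560274, plus strand, 5′ to 3′) is shown because this gene had the largest absolute log2 fold change of the 20, with capitals marking 1 CCAAT and 1 GGGCGG.
Kcnj2: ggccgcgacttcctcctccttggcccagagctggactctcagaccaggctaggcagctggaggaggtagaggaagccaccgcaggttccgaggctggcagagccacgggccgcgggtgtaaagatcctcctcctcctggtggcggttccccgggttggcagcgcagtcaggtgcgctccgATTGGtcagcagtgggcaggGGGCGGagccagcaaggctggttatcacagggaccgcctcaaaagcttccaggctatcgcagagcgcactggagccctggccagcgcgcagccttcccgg

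RefSeq windows were found for 13 of the 20 expressed genes, 14 windows in all. GGGCGG occurred in 9 of the 14, CCAAT in 4, and TATAAA and the CArG box in none. Over the 33469 windows of the RefSeq table the shares were 33.1% for GGGCGG, 37.5% for CCAAT, 14.2% for TATAAA and 1.64% for the CArG box. Over the 69 windows of all Kcn genes they were 49.3%, 27.5%, 2.9% and 0%. The median GC share was 65.3% in the 14 windows, 61% in the 69 and 51.7% in all, and the motif shares were not adjusted for it.

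**Figure D4:**
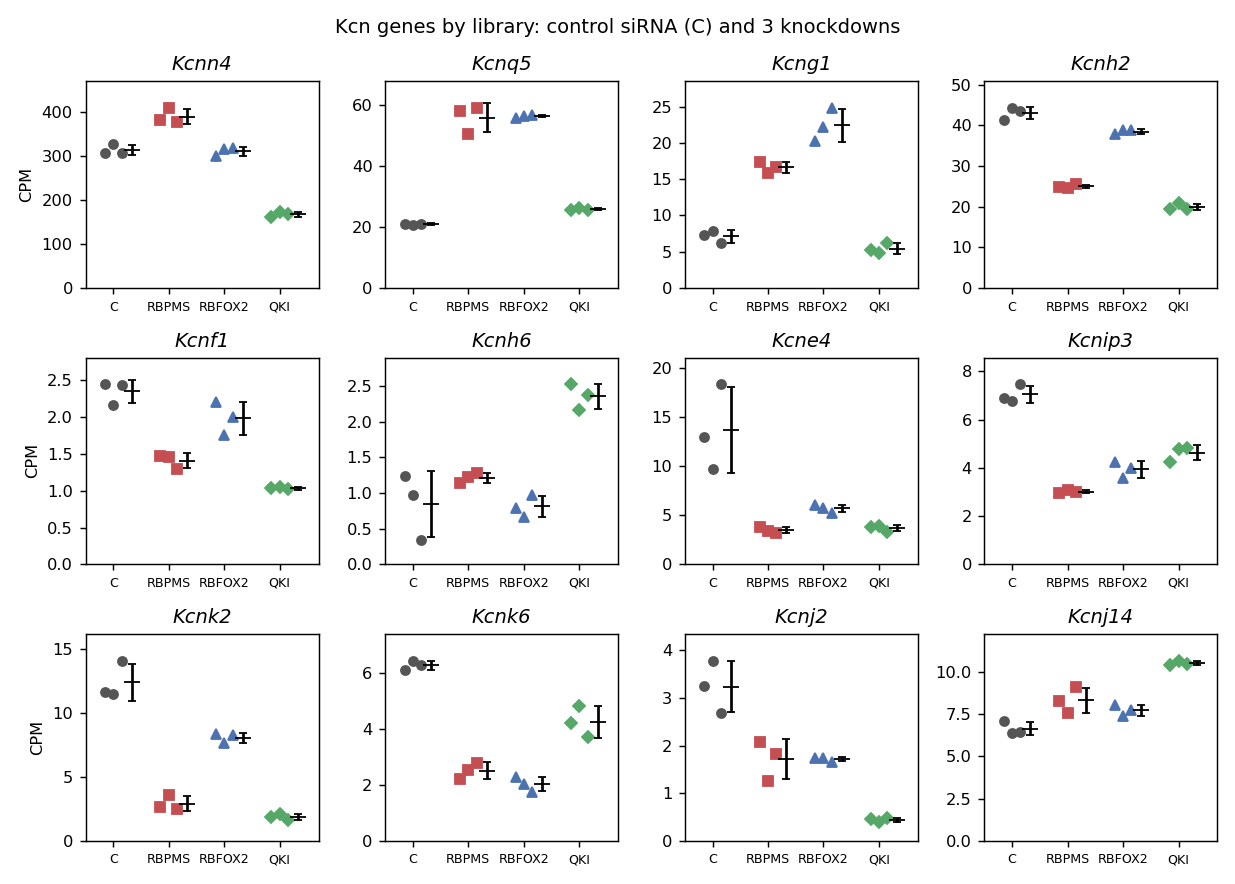
TMM-adjusted CPM (y axis, linear from 0, scaled for each gene) of 12 Kcn genes in the control (C), RBPMS-KD, RBFOX2-KD and QKI-KD libraries, with 1 point for each library and the mean ± SD (n = 3) beside it. Kcnq5 and Kcng1 are high in RBPMS-KD and RBFOX2-KD, Kcnk2 is low in RBPMS-KD and QKI-KD, and Kcnj2 is lowest in QKI-KD at 0.400 to 0.484 CPM.

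Summed over all members, the classes differed in direction. The two-pore-domain sum was 21.1 ± 1.45 CPM in control, 8.29 ± 0.857 in RBPMS-KD, 13.5 ± 0.697 in RBFOX2-KD and 9.39 ± 0.572 in QKI-KD, and the auxiliary sum was 42.5 ± 4.68, 19.6 ± 0.944, 30.5 ± 0.761 and 24.6 ± 0.352 CPM in the same order. Both were lower than control in every knockdown. The calcium- or sodium-activated sum, most of it Kcnn4, was 317 ± 11.2, 392 ± 16.6, 314 ± 10.5 and 171 ± 5.74 CPM. The voltage-gated sum was 88.9 ± 1.77 CPM in control, higher in RBPMS-KD (113 ± 5.99) and RBFOX2-KD (137 ± 2.87) and lower in QKI-KD (72.1 ± 0.592). The inward rectifier sum was 12.1 ± 0.804, 11.8 ± 0.805, 11.8 ± 0.462 and 15.1 ± 0.202 CPM. These sums weight a gene by its counts and were not tested.

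By class, the expressed genes past the 2-fold threshold in at least 1 knockdown (18.8% of all genes at 1 CPM or more) were 5 of 9 voltage-gated, 2 of 4 auxiliary, 2 of 3 two-pore-domain, 1 of 2 inward rectifier and 0 of 2 calcium- or sodium-activated genes. The 5 voltage-gated genes include Kcnh6, which is expressed by the rule through its QKI-KD level. The median log2 fold change of the 3 two-pore-domain genes was −1.32 in RBPMS-KD, −0.62 in RBFOX2-KD and −0.56 in QKI-KD, and that of the 4 auxiliary genes was −0.99, −0.41 and −0.55. The 9 voltage-gated genes had medians of −0.16, −0.06 and −0.07, with members moving in both directions. With 2 to 9 members a class, the classes were compared by these values alone.

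The knockdowns were also compared with each other in the same fit. These contrasts take no control level, though the control libraries enter the shared estimate of spread. Between RBPMS-KD and RBFOX2-KD 1 of the 20 expressed genes passed the 2-fold threshold, against 4.02% of all genes at 1 CPM or more. This was Kcnk2, lower in RBPMS-KD by the direct test (log2 fold change −1.47 ± 0.12, adjusted p = 1.66e-08). By the adjusted p alone 13 of the 20 passed (2 higher and 11 lower in RBPMS-KD), where 56.7% of all genes tested did. The median log2 fold change of the 20 was −0.41, against 0.03 over all genes at 1 CPM or more. Kcnq5 and Kcnj2 were among those that did not pass the test here, with direct values of −0.01 ± 0.048 (adjusted p = 0.855) and −0.0012 ± 0.16 (adjusted p = 0.996).

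Between RBPMS-KD and QKI-KD 5 passed, with a background of 8.18%. Kcnj2 (1.93 ± 0.19), Kcng1 (1.61 ± 0.099), Kcnn4 (1.22 ± 0.041) and Kcnq5 (1.11 ± 0.049) were higher in RBPMS-KD, and Kcne2 (−1.35 ± 0.18) was lower. Kcne2 is among the expressed genes through its QKI-KD level, so this difference is a description only. The scaling by totals moved the median of all genes in this contrast by −0.13 relative to TMM, more than in the other 5. Kcne4 had a direct value of −0.08 ± 0.18 here (adjusted p = 0.703).

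Between RBFOX2-KD and QKI-KD 6 passed, with a background of 13.1%. Kcnk2 (2.12 ± 0.12), Kcng1 (2.04 ± 0.098), Kcnj2 (1.93 ± 0.19) and Kcnq5 (1.12 ± 0.049) were higher in RBFOX2-KD, and Kcnh6 (−1.54 ± 0.27) and Kcnk6 (−1.07 ± 0.11) were lower. The Kcnh6 difference is a description only, since that gene is expressed by the rule through its QKI-KD level. Kcng1, Kcnj2 and Kcnq5 thus separated QKI-KD from each of the other knockdowns by more than 2-fold. The largest adjusted p among these 12 differences was 7.83e-05, for Kcnh6.

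Over all 50 tested Kcn genes, 19 passed the 2-fold threshold in RBPMS-KD (6 higher, 13 lower), 18 in RBFOX2-KD (11 higher, 7 lower) and 20 in QKI-KD (10 higher, 10 lower). The shares over all genes tested were 9.66%, 11.7% and 17.5%. By the adjusted p alone 33, 30 and 33 passed, where 59.4%, 60.3% and 66.9% of all genes tested did. In the direct contrasts 8 genes passed the 2-fold threshold between RBPMS-KD and RBFOX2-KD, 18 between RBPMS-KD and QKI-KD and 16 between RBFOX2-KD and QKI-KD, against 7.52%, 12.2% and 18.4% of all genes tested. The adjusted p alone gave 26, 32 and 27, against 56.7%, 61% and 68.5%. A gene with few counts can enter the test through the group where it is high. The counts that include the 30 genes under 1 CPM, and the single calls of these genes, are therefore a description only.

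Of these 30 genes, 20 passed the 2-fold threshold in some knockdown with a mean of 20 counts or more in a group. Of the Kv beta subunits, Kcnab3 had 192, 327 and 212 counts in control and 70 to 113 counts in every knockdown library, with log2 fold changes of −1.39 ± 0.17, −1.35 ± 0.17 and −1.14 ± 0.17 in RBPMS-KD, RBFOX2-KD and QKI-KD. Kcnab1 moved the other way, with 0.52 ± 0.19, 1.03 ± 0.19 and 0.79 ± 0.19. Its rise in RBPMS-KD (adjusted p = 0.0301) was lost without control 1 (0.120) or RBPMS-KD 1 (0.193) and with the 6 libraries alone (0.0744). Kcnab1 overlaps LOC120100836, which had 80.3 counts a library against 95.9 and was at 1.02 ± 0.31 in RBPMS-KD. Whether reads were shared between them was not tested. Kcnmb4, the neuronal beta subunit of the large-conductance calcium-activated channel, had 179, 240 and 266 counts in control and 58 to 109 in every knockdown library, with log2 fold changes of −1.20 ± 0.16, −1.83 ± 0.17 and −1.42 ± 0.16. For both Kcnab3 and Kcnmb4 the knockdown libraries were all below the control libraries.

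Kcnj4, a strong inward rectifier related to Kcnj2, differed in direction between knockdowns. It had 33, 36 and 45 counts in control, 11, 8 and 6 in RBPMS-KD, 16, 10 and 23 in RBFOX2-KD and 166, 132 and 152 in QKI-KD. Every QKI-KD library was above and every RBPMS-KD and RBFOX2-KD library below control, with log2 fold changes of −1.96 ± 0.34 (adjusted p = 8.99e-05), −1.24 ± 0.30 (adjusted p = 0.0019) and 2.08 ± 0.25 in QKI-KD (adjusted p = 7.92e-07). Kcnj2 was at its lowest in the same QKI-KD libraries. The direct contrasts gave −4.04 ± 0.31 for RBPMS-KD against QKI-KD (adjusted p = 3.77e-09) and −3.32 ± 0.27 for RBFOX2-KD against QKI-KD (adjusted p = 8.26e-09).

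Kcnk1, the background channel TWIK-1, stood apart from control in other directions, with 33, 38 and 52 counts in control, 47, 100 and 38 in RBPMS-KD, 102, 94 and 75 in RBFOX2-KD and 14, 16 and 10 in QKI-KD. The RBFOX2-KD libraries were above and the QKI-KD libraries below control, while RBPMS-KD overlapped with it. The log2 fold changes were 0.77 ± 0.29 (adjusted p = 0.0313), 1.11 ± 0.28 (adjusted p = 0.00267) and −1.50 ± 0.35 in QKI-KD (adjusted p = 0.00119). The rise in RBPMS-KD was lost without RBPMS-KD 2, control 1 or control 2 (adjusted p up to 0.293), in the normalised table (0.0531) and with the 6 libraries alone (0.0598).

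Among the other genes under 1 CPM with a group mean of 20 counts or more, 2 passed the threshold upwards in all 3 knockdowns. Kcnj15, an inward rectifier, had 2 to 10 counts in control and 4 to 56 in the knockdowns, with log2 fold changes of 2.56 ± 0.57, 3.03 ± 0.55 and 1.53 ± 0.62 in RBPMS-KD, RBFOX2-KD and QKI-KD. The groups did not overlap with control in RBPMS-KD and RBFOX2-KD, and did in QKI-KD, where 1 library had 4 counts. Kcnh1, the ether-a-go-go pore, had 4 to 6 counts in control and 34 to 40 in QKI-KD, with log2 fold changes of 1.69 ± 0.44, 1.19 ± 0.45 and 2.84 ± 0.41 in the same order.

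Kcnh5, another ether-a-go-go pore, and Kcnk12, a background channel, passed upwards in RBFOX2-KD (2.24 ± 0.51 and 1.18 ± 0.25) and QKI-KD (1.98 ± 0.53 and 1.03 ± 0.26). Kcna4, an A-type pore (1.27 ± 0.42), Kcnab1 (1.03 ± 0.19) and Kcnj6, a G protein-gated rectifier (1.40 ± 0.44), passed upwards in RBFOX2-KD alone. Upwards in QKI-KD alone were the inward rectifier Kcnj13 (1.14 ± 0.16), Kcnk7 (1.36 ± 0.20) and the sodium-activated pore Kcnt1 (1.34 ± 0.22). These calls do not show which of the genes differ between knockdowns. Kcnj13 overlaps Gigyf2 in the GRCr8 annotation, a gene with 11236 counts a library against 118 for Kcnj13.

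Downwards, Kcns3, a silent Kv subunit, passed in RBPMS-KD (−1.62 ± 0.48) and RBFOX2-KD (−1.19 ± 0.45). Kcns3 was at 22, 62 and 19 counts in control, so control 2 stood far above the other control libraries. The regulator Kcnrg passed in RBPMS-KD (−1.29 ± 0.31) and QKI-KD (−1.39 ± 0.31). In RBPMS-KD alone the G protein-gated rectifier Kcnj9 (−1.54 ± 0.29) and the mechanosensitive Kcnk4 (−1.31 ± 0.40) passed, and in QKI-KD alone Kcnq1 (−1.68 ± 0.32), the pore of the slow delayed rectifier of heart muscle. Kcnj9 overlaps Igsf8, which had 4417 counts a library against 51.6 for Kcnj9.

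The 20 genes under 1 CPM that passed with a group mean of 20 counts or more gave 36 calls past the 2-fold threshold, of which 24 stayed past it whichever library was left out. The other 12 depended on single libraries, and those of the genes named here were as follows. Past the adjusted p no longer were Kcna4 in RBFOX2-KD without control 3 or RBFOX2-KD 3 (highest adjusted p 0.0706), Kcnj6 in RBFOX2-KD without control 3 (0.0613), Kcnh1 in RBFOX2-KD without control 2, control 3, RBFOX2-KD 2 or RBFOX2-KD 3 (0.124) and Kcnj15 in QKI-KD without control 2, control 3, QKI-KD 1 or QKI-KD 2 (0.154). The same held for Kcns3 in RBPMS-KD without control 2 (0.101) and in RBFOX2-KD without control 2, RBFOX2-KD 1 or RBFOX2-KD 3 (0.333). In RBFOX2-KD, Kcnab1 dropped under the 2-fold threshold without control 1 or RBFOX2-KD 2 (to 0.91 at the least), Kcnj4 without RBFOX2-KD 2 (−0.99) and Kcnk1 without control 2 (0.99). In QKI-KD, Kcnab3 did so without control 2 (−0.95) and Kcnk12 without control 2 or QKI-KD 1 (0.86). The adjusted p of Kcna4 and Kcnh1 in RBFOX2-KD also missed the threshold with no filter (0.0634 and 0.0787), that of Kcnh1 in the normalised table (0.0937), and that of Kcnj15 in QKI-KD in the normalised table (0.0946) and with the 6 libraries alone (0.0572).

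Another 3 genes passed the 2-fold threshold with fewer counts, and are named after their values were seen, which makes 23 genes and 41 calls in all. Kcnh8 had 0 to 7 counts in control and 6 to 18 in the knockdowns, with log2 fold changes of 1.92 ± 0.73, 2.02 ± 0.71 and 1.85 ± 0.73. In RBPMS-KD, Kcne1 was at 1.94 ± 0.74 and Kcnh3 at −2.20 ± 0.76 (adjusted p = 0.0191), with 0 to 14 and 0 to 26 counts over all libraries. Kcne1 had 10, 14 and 10 counts in RBPMS-KD and no more than 6 in any other library. It entered the test through the group where it is high, so its call is a description only. Kcne1 overlaps LOC108352307 (4.92 counts a library against 4.67), which was at 1.95 ± 0.75 in RBPMS-KD. Kcnh3 overlaps Mcrs1, with 11405 counts a library against 11. Whether reads were shared was not tested, and single calls of these 3 genes were not followed with a library left out.

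Partner genes without the Kcn prefix were looked at in the same fit, in a list of 15 of which 8 were tested and 5 expressed. Of these 5, 4 passed the test in RBPMS-KD (1 higher, 3 lower), 4 in RBFOX2-KD (2 higher, 2 lower) and 5 in QKI-KD (2 higher, 3 lower), where 73.2%, 72.7% and 78.5% of all genes at 1 CPM or more did. Amigo1, an adhesion protein bound to Kv pores, had log2 fold changes of −0.97 ± 0.11, −1.07 ± 0.11 and −0.27 ± 0.10 in RBPMS-KD, RBFOX2-KD and QKI-KD, from a control mean of 4.66 ± 0.308 CPM. Atp1b3, a beta subunit of the sodium pump that builds the potassium gradient, gave 0.50 ± 0.047, 0.49 ± 0.047 and 0.20 ± 0.047. Atp1b1, the other pump beta subunit expressed, measured 131, 131 and 116 CPM in control and 48.5, 51.2 and 52.96 CPM in QKI-KD, with −0.35 ± 0.044, −0.10 ± 0.044 and −1.31 ± 0.045. Its QKI-KD libraries were far below control. Rest, a transcriptional repressor of many neuronal channel genes, gave 0.01 ± 0.041, 0.29 ± 0.041 and 0.24 ± 0.041. Abcc9, the sulfonylurea receptor of vascular ATP-sensitive channels, had 6 to 15 counts in control and 27 to 84 in the knockdowns, while its pore Kcnj8 had 0 to 4 in any library.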

How the data were processed

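Poly(A)-selected RNA of 12 PAC1 libraries was sequenced as paired ends after a strand-specific library preparation. The authors deposited raw counts for 33294 gene symbols, made per the study's methods with STAR (2.5.2a in the submitters' processing notes, beside FastQC 0.11.2, MultiQC 1.8, edgeR 3.28.1 and DESeq2 1.30.0), the assembly mRatBN7.2 and featureCounts with a RefSeq annotation. The study's methods name other versions of STAR, FastQC and MultiQC. Whether those methods describe the deposited counts was not resolved. A second deposited table holds a normalised signal (noise filter of noisyR and quantile normalisation by the authors), in which 5 is the lowest value, and served as an alternative only. Handling of reads that match several or overlapping genes, and use of strand in counting, are not given in the sources used here. Even numbers made up 68.1% of the values between 1 and 19 and 50.9% of those above 1000, so halved counts were fitted as an alternative.

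Kcn rows were taken by symbol and classed by prefix. The members and lists were chosen with earlier results of these data known. The test was that of edgeR 4.0.16 under R 4.3.3 on the counts (filterByExpr, TMM factors of 0.948 to 1.05, glmQLFit and glmQLFTest, two-sided) over all 12 libraries with 1 coefficient per group, on 18438 genes, with Benjamini-Hochberg adjustment over these. The SE is the absolute log2 fold change divided by the square root of F. The fit was also run on simulated counts with known changes in QKI-KD, set on genes above 1 CPM. The spread there was set by a formula and not taken from these libraries. That run therefore does not bear on genes with fewer counts. Totals of 111 to 152 M counts set the precision, and 3 counts or fewer in each library of a group were taken as the floor. Permuting 3 against 3 libraries exactly gives no p under 0.1 for one gene, and the adjusted p therefore come from the model.

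Results of 4 genes are not reported here, though they stay in the counts of genes. The text names every Kcn gene at 1 CPM or more, with library values for those past the 2-fold threshold and for the member with the highest mean of each class. Genes under 1 CPM are named where past that threshold with a group mean of 20 counts or more, and otherwise (nearest the limit, channel genes with few counts, genes past the threshold on fewer counts) by choice after their values were seen. Partners and siRNA targets are named too. Alternatives were RLE factors, library totals, no filter, a filter at a mean of 200 counts, DESeq2 1.42.0, limma 3.58.1 on log2(normalised signal + 1), the 6 libraries of a comparison alone, a replicate block, halved counts, the adjusted p without a fold threshold, leaving out each library, and other limits for expressed genes. Replicates of a group differed beyond counting noise (chi-square per degree of freedom 4.64 to 57.8). The highest values were those of RBPMS-KD 2 against RBPMS-KD 1 (57.8) and RBPMS-KD 3 (45.6), while RBPMS-KD 1 against RBPMS-KD 3 gave 9.27. The next highest was 21.5, for control 2 against control 3. RefSeq promoters of GRCr8 were matched by symbol, and no coordinates were moved between builds. Transcript lengths, proteins and splicing were not analysed here.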

Additional observations from a re-analysis of the deposited data

How the results depend on the processing

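Of the 214 counts of genes recomputed under another setting, 196 stayed within 1.5 times the count reported. Requiring a mean of 200 counts, which removes genes from the test, left 7, 4 and 5 Kcn genes past the 2-fold threshold in RBPMS-KD, RBFOX2-KD and QKI-KD, and 1, 4 and 5 in the contrasts of RBPMS-KD with RBFOX2-KD, RBPMS-KD with QKI-KD and RBFOX2-KD with QKI-KD. The normalised table gave 11 in RBFOX2-KD and 4 between RBPMS-KD and RBFOX2-KD. Without a fold threshold the Kcn counts were 33, 30 and 33 against control and 26, 32 and 27 between knockdowns, and those of expressed genes 17, 12 and 18. A limit of 2 CPM left 13 expressed genes. Leaving out 1 library at a time gave 18 to 20, 15 to 19 and 17 to 21 Kcn genes against control, 6 to 8, 13 to 21 and 15 to 17 between knockdowns, 6 to 8, 4 and 6 to 7 expressed genes against control, and 20 to 21 expressed genes. Of the 16 calls of expressed genes past the 2-fold threshold, 15 stayed past it under every alternative that tested them, and that of Kcne4 in RBFOX2-KD did not without control 3 (−0.99). Of the 120 values of single genes, 14 turned sign under at least 1 setting, none of them past the test where the sign was turned. On its original side, Kcnh6 in RBFOX2-KD passed without control 3 (−0.44, adjusted p = 0.0379). In turning, 4 of the 14 moved by more than their SE. Kcnn4 in RBFOX2-KD became 0.040 with library totals and 0.027 in the normalised table, and with 1 library left out at a time Kcnh6 in RBFOX2-KD ran from −0.44 to 0.29, Kcnj13 in RBPMS-KD from −0.13 to 0.21 and Kcnk12 in RBPMS-KD from −0.27 to 0.22. The cause was not tested. Replicate numbers did not pair the samples (2 of 18 same-numbered pairs correlated above 0.1, from −0.21 to 0.16, and 3 of 12 libraries correlated best with their own number), and with the replicate block 19, 19 and 20 Kcn genes passed against control and 8, 19 and 16 between knockdowns. Kcnh6 was not tested under the filter at 200 counts. At this depth 44 genes had too few counts to compare.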
